A study of Mus musculus with 13 samples.

Results

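The fibrillar collagens are the family of collagens that assemble into the banded fibrils of connective tissue, and 9 of their genes, Col1a1, Col1a2, Col3a1, Col5a1, Col5a2, Col5a3, Col11a1, Col24a1 and Col27a1, were examined in the mouse pancreas. They were chosen by name as genes of this family, with earlier results of these data known. They were found in the expression table by their Entrez identifiers, and all 9 were among its 23366 genes. In this tissue the genes of collagen types I, III and V stood lower in old mice than in young ones. Other old mice had gone through 1 cycle of transient expression of the reprogramming factors Oct4, Sox2, Klf4 and Myc (OSKM). In these old-OSKM mice Col1a1, Col1a2, Col3a1 and Col5a1 stood above all untreated old mice. Col3a1, for instance, had a geometric mean of 6.24 RPKM (reads per kilobase of transcript, scaled to the number of mapped reads) in young, 3.04 in old and 5.70 in old-OSKM mice. No single difference passed an adjustment over all genes, and the values of the individual mice are therefore given throughout.

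A fibrillar collagen is a triple helix of 3 chains, folded in the endoplasmic reticulum, secreted as procollagen, trimmed at its ends and then packed into fibrils that lysyl oxidases crosslink. Types I and III make up the bulk of fibrils in soft tissue, while type V and type XI chains are minor components that are built into the fibril core and limit its diameter. In the pancreas the stellate cells and fibroblasts between the acini are the main known source of these collagens, and the acinar cells, which fill most of the organ, secrete digestive enzymes.

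RNA was sequenced from the whole pancreas of 13 female mice, with 1 library per mouse. All mice were of the reprogrammable i4F-B strain, in which a doxycycline-inducible OSKM cassette that can be switched on in all tissues is inserted in the Pparg gene, so the control groups carried the cassette too. The 4 young mice were 13 weeks old and the 5 old mice 55 weeks old, and both groups were untreated, without doxycycline. The 4 old-OSKM mice received doxycycline in drinking water with sucrose for 7 days from 55 weeks of age. They recovered for 2 weeks, so that they were 58 weeks old when the tissue was taken. Doxycycline, the sucrose given with it, the OSKM factors and the 3 further weeks of age cannot be told apart in the comparison of old-OSKM with old mice. The replicates were separate mice. In whole tissue, fewer cells of a type and less RNA per cell cannot be told apart either.

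The acinar identity of the tissue was plain in every library, since all 13 acinar markers tested had a mean log2 RPKM over 0 and their summed level lay between 13.69 and 13.79 on the log2 scale in all mice. The deposited values were quantile normalized, which gives genes of the same rank the same value in every mouse. Cela2a, Ctrb1 and Amy2a5 had identical values in all 13 mice, so this narrow range does not show an equal acinar content. The 15 markers of fibroblasts and stellate cells (such as Pdgfra, Dcn and Vim, with no fibrillar collagen among them) were present at lower levels, and 13 of the 15 had a mean log2 RPKM over 0. Of these markers, Dcn, Dpt and Lum are also in the list of fibril surface proteins described further below, so the 2 lists are not independent. Some mice stood apart in the stroma. The mean log2 RPKM of these 15 markers was 2.04 in old-OSKM mouse 4, 1.70 in young mouse 4 and 1.42 in old-OSKM mouse 1, and between 0.63 and 1.03 in the other mice. Old-OSKM mice 1 and 4 also had the highest adipocyte markers, with a mean over the 8 markers of 0.39 and -0.45 on the log2 scale against -2.43 to -1.50 in all other mice. The comparison of old-OSKM with old mice is therefore given with and without these mice. For the collagens this covers the differences, and for the gene lists the calls, with directions for some of the lists.

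The genes lie on 7 chromosomes of the mouse genome (GRCm38, GENCODE vM21). Col1a1 spans chr11:94936224-94953042 and Col1a2 chr6:4504814-4541544, both on the plus strand. Col3a1 (chr1:45311538-45349706, plus strand) and Col5a2 (chr1:45374321-45503282, minus strand) are neighbours whose 3′ ends face each other across 24.6 kb with no annotated gene between them. Col5a1 spans chr2:27886425-28039514 on the plus strand and Col5a3 chr9:20770050-20815067 on the minus strand. Col11a1 (chr3:114030540-114220718), Col24a1 (chr3:145292472-145552011) and Col27a1 (chr4:63214004-63334991) are all on the plus strand. They are long genes of many small exons, with 51 to 67 exons in the longest transcript. Noncoding transcripts are annotated on the opposite strand within Col5a1, Col5a3 and Col24a1. Other transcripts are annotated on the same strand within Col1a2, Col3a1, Col5a2, Col24a1 and Col27a1. The methods name a library kit without saying that it marks strand. Reads from transcripts on either strand may therefore not be told from those of the collagen gene.

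RefSeq promoter sequence (GRCm38.p6) was at hand for 7 of the 9 genes, the exceptions being Col1a1 and Col5a2. The sequences just upstream of the start are shown for Col1a2, Col3a1 and Col5a1, whose levels moved together over the mice, and for Col5a3, which moved with them less closely. They are written 5′ to 3′ in the direction of the gene, and capitals mark matches on either strand to CCAAT, known for binding the factor NF-Y, to TATAAA, known for binding the TBP subunit of the transcription machinery, and to GGGCGG, the core of sites known for binding Sp1. For Col1a2, bases that GENCODE places in an exon are left out, so that the stretch shown ends 126 bases before the RefSeq start (chr6:4505370-4505492).
Col1a2: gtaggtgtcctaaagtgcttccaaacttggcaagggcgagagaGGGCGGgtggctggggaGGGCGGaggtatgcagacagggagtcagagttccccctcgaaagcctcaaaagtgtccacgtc
Col3a1: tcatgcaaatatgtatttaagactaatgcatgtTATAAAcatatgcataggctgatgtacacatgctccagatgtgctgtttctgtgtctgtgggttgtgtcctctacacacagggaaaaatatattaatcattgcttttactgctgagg
Col5a1: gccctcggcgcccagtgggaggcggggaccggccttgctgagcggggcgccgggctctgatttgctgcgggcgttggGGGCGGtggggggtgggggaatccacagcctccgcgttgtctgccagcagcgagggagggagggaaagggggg
Col5a3: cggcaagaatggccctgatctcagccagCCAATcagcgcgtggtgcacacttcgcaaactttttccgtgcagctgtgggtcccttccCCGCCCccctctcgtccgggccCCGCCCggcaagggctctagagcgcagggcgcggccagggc
The last 3 cover the 150 bases before the start (chr1:45311388-45311537, chr2:27886275-27886424 and chr9:20815068-20815217).

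None of these motifs was found in all of the promoters of Col1a2, Col3a1 and Col5a1. In the 250 bases before the start, which is the window searched on both strands, GGGCGG was found in 2 copies each in Col1a2, Col5a1, Col5a3 and Col11a1, in 1 copy in Col27a1 and in none in Col3a1 and Col24a1. Of all 32851 RefSeq promoters of the same length, 32.7% held it. CCAAT was found once each in Col1a2, Col5a3 and Col11a1, against 33.8% of all promoters, and TATAAA only in Col3a1 among the 7 members with a sequence, against 12.4%. The GC content of the window ran from 35.2% in Col3a1 to 76.4% in Col5a1, with a median of 52.4% over all promoters. The TATAAA of Col3a1 began 117 bases before the start. All of these are matches of letters and not measured binding.

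The levels of the members spanned a wide range. RPKM is a level per transcript length and can be compared between genes, and the order of the mean log2 RPKM over the 13 mice was Col3a1 (2.20), Col1a2 (1.72), Col1a1 (1.62), Col5a1 (0.05), Col5a3 (-0.03), Col5a2 (-0.20), Col27a1 (-1.84), Col11a1 (-4.60) and Col24a1 (-5.06). Col3a1 was above Col1a2 in all 13 mice. Col1a2 and Col1a1 did not separate, since Col1a2 was the higher in 9 of 13 mice. The 3 type V genes lay below type I in all mice and overlapped each other, with Col5a1 above Col5a3 in 7 mice and Col5a3 above Col5a2 in 9. Col27a1 was below the type V genes and above Col11a1 in all 13 mice. Col11a1 and Col24a1 were near the bottom of the table, at 0.0413 and 0.0300 RPKM for the mean of all mice, and Col11a1 was above Col24a1 in only 7 mice.

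**Figure D1:**
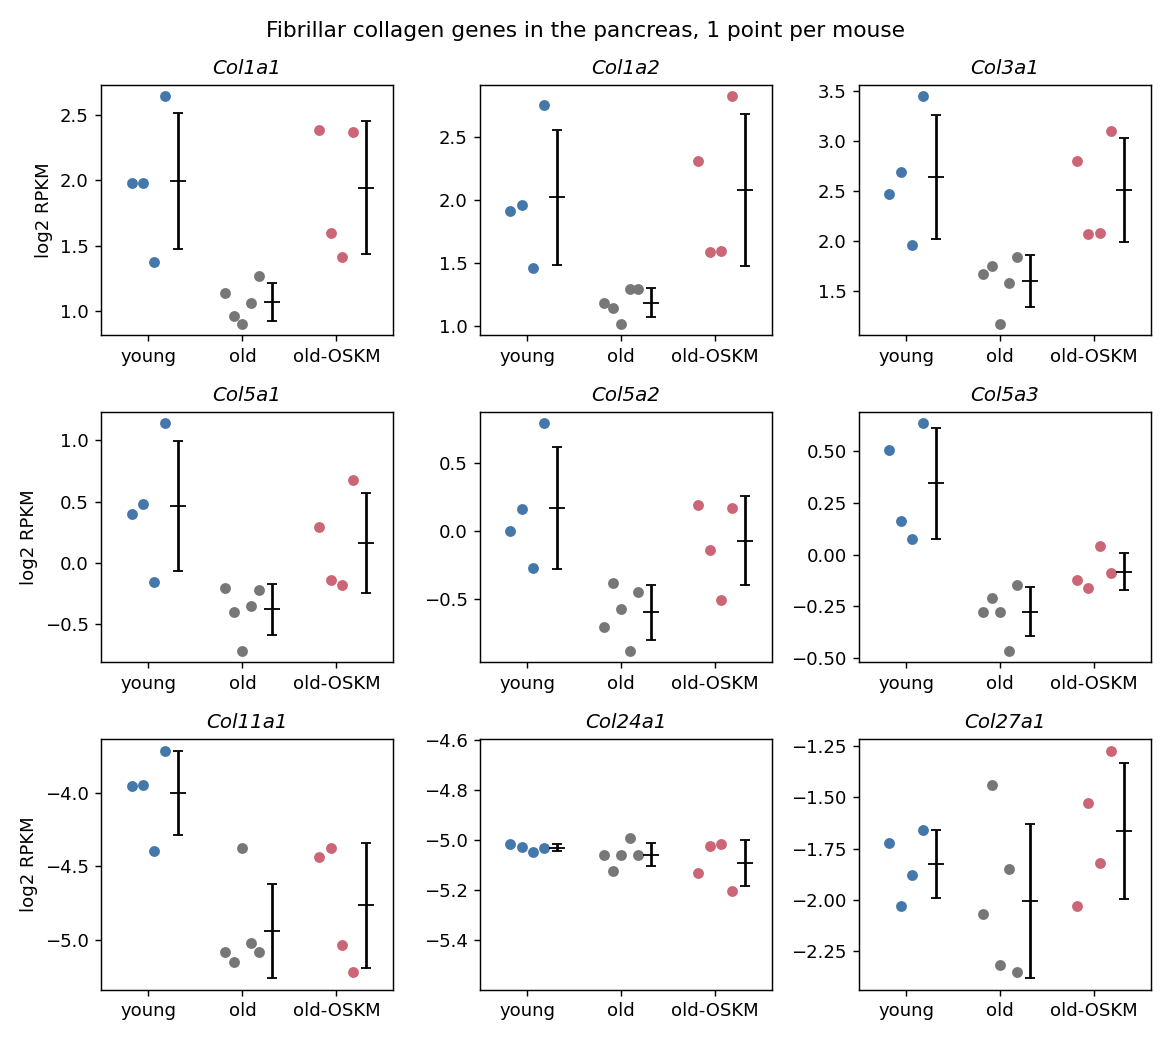
Deposited log2 RPKM (y axis) of the 9 fibrillar collagen genes in 4 young, 5 old and 4 old-OSKM mice, with 1 point per mouse in the order of replicates and the group mean ± SD as a bar to the right of the points. The 5 old mice lie below all 4 young mice for Col1a1, Col1a2, Col3a1, Col5a1, Col5a2 and Col5a3, while Col24a1 is almost flat over all 13 mice.

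The comparison of old with young mice asks how the aging pancreas differs from the young one. All 9 members had a lower mean in old mice, a direction that 45.5% of all genes had, though Col24a1 differed by only -0.028 on the log2 scale. With the study's thresholds, which are a raw limma p under 0.01 together with a fold change over 1.5, 6 of 9 members were called lower in old mice (Col1a1, Col3a1, Col5a1, Col5a2, Col5a3 and Col11a1), and 0.437% of all 23366 genes were called lower. The median difference of the members was -0.83 on the log2 scale, and that of all genes was 0.00125. In 6 of 9 members (Col1a2 in place of Col11a1) the old mice lay below all young mice without overlap, and 1.22% of all genes did so. No member had a Benjamini-Hochberg adjusted p under 0.05, which 19 genes of the table had (0.0813%), and the smallest among the members was 0.0942, for Col5a3.

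Type I collagen is a heterotrimer of chains from Col1a1 and Col1a2. Col1a1 was at 1.98, 1.98, 1.37 and 2.64 log2 RPKM in young mice 1 to 4, at 1.13, 0.96, 0.90, 1.06 and 1.27 in old mice 1 to 5, and at 2.39, 1.60, 1.42 and 2.37 in old-OSKM mice 1 to 4. Every old mouse was below every young and every old-OSKM mouse, whose values overlapped each other. Col1a1 fell by 0.93 ± 0.26 (limma SE) on the log2 scale from young to old mice, or 1.90-fold, with a raw p of 0.00393 and an adjusted p of 0.469. Col1a2 was at 1.91, 1.96, 1.46 and 2.75 log2 RPKM in young, at 1.19, 1.15, 1.02, 1.29 and 1.30 in old, and at 2.31, 1.58, 1.60 and 2.82 in old-OSKM mice. The order of the groups was the same as for Col1a1, and old-OSKM mice 1 and 4 were again well above old-OSKM mice 2 and 3. The difference of Col1a2 between old and young mice was -0.83 ± 0.28 and missed the raw threshold, with a p of 0.0126 and an adjusted p of 0.668.

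Type III collagen is a homotrimer of the Col3a1 chain and is found with type I in the fibrils of distensible tissue. Col3a1 was at 2.47, 2.69, 1.96 and 3.45 log2 RPKM in young, at 1.67, 1.75, 1.17, 1.58 and 1.84 in old, and at 2.80, 2.07, 2.08 and 3.10 in old-OSKM mice. The old mice lay below all others, and the highest old mouse was close to the lowest young mouse. Col3a1 fell by 1.04 ± 0.30 on the log2 scale from young to old mice, or 2.05-fold, with a raw p of 0.00494 and an adjusted p of 0.511.

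The type V chains of Col5a1 and Col5a2 form the trimer that starts fibril growth, and the chain of Col5a3 joins them in some tissues. Col5a1 was at 0.40, 0.48, -0.16 and 1.14 log2 RPKM in young, at -0.21, -0.40, -0.72, -0.35 and -0.22 in old, and at 0.30, -0.14, -0.19 and 0.68 in old-OSKM mice. Young mouse 3 and old-OSKM mice 2 and 3 were only just above the highest old mouse. Col5a1 fell by 0.84 ± 0.25 from young to old mice, with a raw p of 0.00535 and an adjusted p of 0.525. Col5a2 was at -0.0016, 0.16, -0.27 and 0.79 log2 RPKM in young, at -0.70, -0.38, -0.57, -0.88 and -0.44 in old, and at 0.19, -0.14, -0.50 and 0.17 in old-OSKM mice. Here the old and young mice did not overlap, and old-OSKM mouse 3 lay within the range of the old mice. Col5a2 fell by 0.76 ± 0.21, with a raw p of 0.00353 and an adjusted p of 0.451.

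Col5a3 varied less among the old-OSKM mice than the other type V genes or types I and III, with an SD of 0.09. It was at 0.51, 0.16, 0.08 and 0.63 log2 RPKM in young, at -0.28, -0.21, -0.28, -0.47 and -0.15 in old, and at -0.12, -0.16, 0.04 and -0.09 in old-OSKM mice. Both old groups were below all young mice, and the old-OSKM mice overlapped the old mice at their upper end. Col5a3 fell by 0.62 ± 0.11 from young to old mice, or 1.54-fold, with a raw p of 0.000153.

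Col11a1 encodes a chain of type XI collagen, a cartilage collagen related to type V that is scarce in most soft tissue. It was at -3.95, -3.94, -4.40 and -3.71 log2 RPKM in young, at -5.08, -5.15, -4.37, -5.02 and -5.08 in old, and at -4.43, -4.37, -5.04 and -5.22 in old-OSKM mice. Old mouse 3 was above the other old mice and overlapped the lowest young mouse, and the old-OSKM mice fell into a higher and a lower pair. Col11a1 fell by 0.94 ± 0.22 from young to old mice, with a raw p of 0.00119 and an adjusted p of 0.255. The lower of these values are at the level of Col24a1, which stayed between -5.20 and -4.99 in all mice, and the number of reads behind such values is unknown.

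Col24a1 and Col27a1 are the members that evolved apart from the other fibrillar collagens. Col24a1 had a range of 0.213 over all 13 mice, and its values moved with those of Col2a1 (Pearson r 0.88, 13 mice) and Mmp1a (r 0.86), other near-constant genes at the bottom of the table, so no difference between groups is read from it. Col27a1 was well above that level, at -1.72, -2.03, -1.88 and -1.66 log2 RPKM in young, at -2.07, -1.44, -2.32, -1.85 and -2.35 in old, and at -2.03, -1.53, -1.82 and -1.27 in old-OSKM mice. All 3 groups overlapped. Its difference between old and young mice was -0.18 ± 0.20, with a raw p of 0.378. Outside the list, Col2a1, the cartilage type II gene, was between -4.51 and -4.36 in all mice, and Col11a2, the type XI partner of Col11a1, differed by 0.59 ± 0.21 between old and young mice (raw p 0.0188, adjusted p 0.708), in the direction opposite to Col11a1. Col11a2 was also low, between -4.82 and -3.69 in all mice, and was not called, so no opposite change of the 2 genes is read from it.

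**Figure D2:**
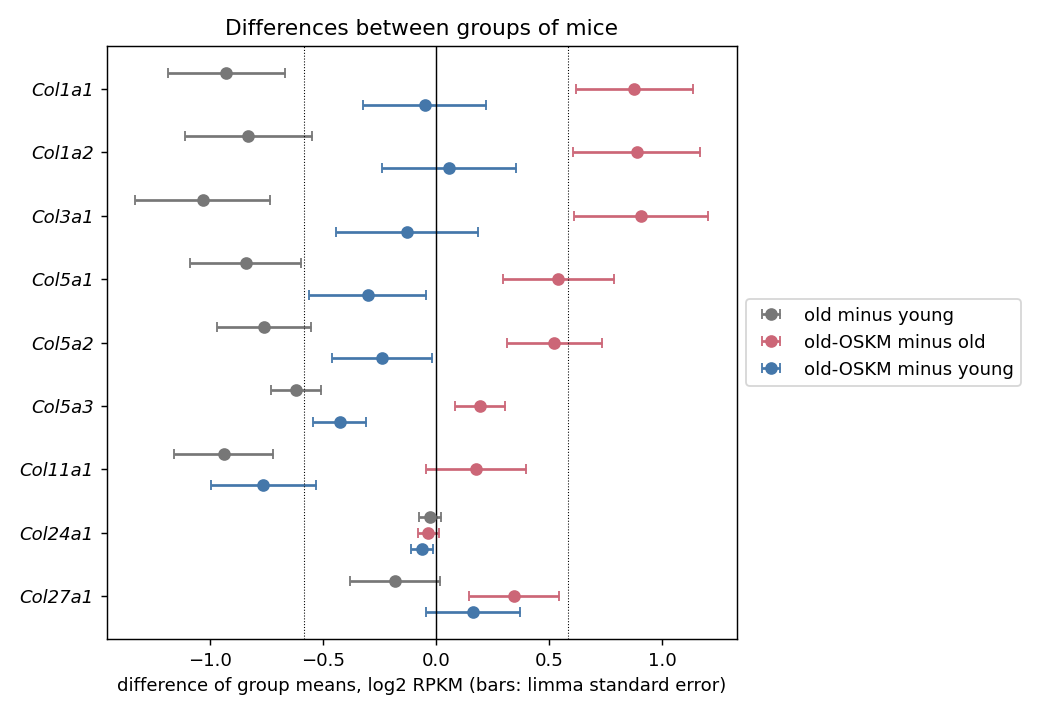
Difference of group means in log2 RPKM (x axis) for each of the 9 genes (y axis) in the 3 contrasts, with the limma standard error as bars and dotted lines at a fold change of 1.5 in either direction. Col1a1, Col1a2 and Col3a1 lie near -0.9 for old minus young, near 0.9 for old-OSKM minus old and near 0 for old-OSKM minus young, while Col5a3 and Col11a1 stay below 0 against young mice.

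The number of calls in this comparison depended on single mice, above all on young mouse 4, which had the highest value among the young mice in 8 of 9 members, all but Col24a1. Without it 1 of 9 members was called, Col11a1, and without old mouse 4 it was 3. Without young mouse 4 the differences of Col1a1 and Col3a1 were -0.71 and -0.77, and Col5a2 and Col5a3 kept a raw p of 0.00903 and 0.00041 and missed the fold threshold. When each of the 13 mice was left out in turn, Col11a1 kept its call in all 13 fits, Col1a1 and Col5a2 in 12, Col5a3 in 10, Col3a1 in 9 and Col5a1 in 7. With a pseudocount of 1 RPKM, 2 of 9 were called, Col1a1 and Col3a1. The direction of the 9 differences did not change without any 1 of the 13 mice. By an exact permutation test over the mice of both groups, Col1a1, Col1a2, Col3a1, Col5a1, Col5a2 and Col5a3 each had p = 0.00794, the smallest that 5 mice against 4 can give, and Col11a1 had p = 0.0238. The members at that smallest p are those whose old and young mice did not overlap. Their p restates this separation and is no further support.

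The comparison of old-OSKM with old mice asks what 1 cycle of reprogramming factors left behind in the old pancreas 2 weeks later. Col1a1 and Col1a2 were called higher in old-OSKM mice, which makes 2 of 9 members, and 0.582% of all genes were called higher. Of the members, 8 of 9 had a higher mean in old-OSKM mice, against 36.9% of all genes, and the median difference was 0.52 on the log2 scale against -0.04 for all genes. In 4 of 9 members (Col1a1, Col1a2, Col3a1 and Col5a1) the old-OSKM mice lay above all old mice, and 1.02% of all genes did so. The smallest adjusted p of a member was 0.547, and 1 gene of the whole table (0.00428%) was under 0.05.

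Col1a1 was higher by 0.88 ± 0.26 on the log2 scale in old-OSKM than in old mice, or 1.84-fold, with a raw p of 0.00562. Col1a2 was higher by 0.89 ± 0.28, or 1.85-fold, with a raw p of 0.00877. Col3a1 had a difference of the same size, 0.91 ± 0.30 or 1.88-fold, and with a raw p of 0.0108 it was just outside the threshold. The type V genes differed by less, Col5a1 by 0.54 ± 0.25 (raw p 0.0495), Col5a2 by 0.52 ± 0.21 (raw p 0.0283) and Col5a3 by 0.19 ± 0.11 (raw p 0.112). Col27a1 differed by 0.34 ± 0.20 (raw p 0.110) and Col11a1 by 0.18 ± 0.22 (raw p 0.439), and neither was called. Whether the type V difference was smaller than that of type I was tested on Col5a2 within each mouse: Col5a2 minus Col1a1 was -1.66 ± 0.25 (SD, n = 5) among the old mice, against -2.01 ± 0.23 (SD, n = 4) among the old-OSKM mice, and the exact permutation test gave p = 0.0952 and 0.833 after adjustment over the 12 within-mouse tests.

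Old-OSKM mice 1 and 4 carried much of this difference. With both left out, a choice made after seeing the data, 0 members were called, the differences were 0.44 ± 0.27 for Col1a1, 0.40 ± 0.27 for Col1a2 and 0.47 ± 0.33 for Col3a1, and the raw p-values were 0.13, 0.165 and 0.192. In that fit Col5a1 differed by 0.22 ± 0.28 and Col5a2 by 0.27 ± 0.25. Col5a3, Col11a1 and Col27a1 differed by 0.21 ± 0.15, 0.24 ± 0.26 and 0.33 ± 0.23, about as much as with all mice. No member was called either without old-OSKM mouse 1 alone, old-OSKM mouse 4 alone, old mouse 2, old mouse 3 or old mouse 4, 4 members were called without old-OSKM mouse 3, 3 without young mouse 3, young mouse 4 or old-OSKM mouse 2, and 1 without young mouse 1, young mouse 2, old mouse 1 or old mouse 5. The exact permutation test gave p = 0.00794, the smallest possible, for Col1a1, Col1a2, Col3a1 and Col5a1, and p = 0.0317 for Col5a2. The smallest p again belongs to the members whose groups did not overlap, and it restates that separation.

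The 2 comparisons above share the old mice with each other, so old-OSKM and young mice were also compared directly. For Col1a1, Col1a2 and Col3a1 the differences between old-OSKM and young mice were -0.05 ± 0.27, 0.06 ± 0.30 and -0.13 ± 0.31 on the log2 scale, with raw p-values of 0.853, 0.852 and 0.691. These errors leave room for a difference of either sign. Col5a3 and Col11a1 had lower means in old-OSKM than in young mice. Col5a3 differed by -0.43 ± 0.12, with a raw p of 0.00377, and its 4 old-OSKM mice lay below the 4 young mice, as in 0.813% of all genes, but its 1.35-fold difference is under the fold threshold. Col11a1 fell by 0.77 ± 0.23, with a raw p of 0.00672 and an adjusted p of 0.706, and was the 1 member of 9 called, where 0.171% of all genes were called lower. That call was lost without young mouse 1, 2 or 4 and without old-OSKM mouse 3 or 4. For 4 mice against 4, the smallest p of the exact permutation test is 0.0286. Col5a3 had it, as any gene without overlap does, while Col11a1 had 0.0571.

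No shift was detected in the proportions of chains that share a trimer, or of Col3a1 and Col1a1, whose collagens share fibrils. Col1a1 minus Col1a2 in the same mouse was -0.03 ± 0.09 (SD, n = 4) in young, -0.12 ± 0.09 (n = 5) in old and -0.14 ± 0.24 (n = 4) in old-OSKM mice on the log2 scale. The exact permutation test gave p = 0.143 for old against young and p = 0.937 for old-OSKM against old mice. Col3a1 minus Col1a1 was 0.65 ± 0.14, 0.54 ± 0.19 and 0.57 ± 0.15 in the same order of groups, and Col5a1 minus Col5a2 was 0.29 ± 0.13, 0.21 ± 0.30 and 0.23 ± 0.23. None of the 12 within-mouse tests had an adjusted p below 0.833, and differences as large as the spreads given cannot be seen with 4 or 5 mice.

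Over the 13 mice, 5 members formed a tight group. Pearson's r of the log2 RPKM was 0.97 between Col1a1 and Col1a2, 0.97 between Col3a1 and Col5a1, and at least 0.87 for every pair among Col1a1, Col1a2, Col3a1, Col5a1 and Col5a2. After the group means were taken out, the same pairs had 0.94 and 0.98, so that mice of the same group also differed in these genes together. The lowest of the 5 genes' pairs then had 0.79, between Col5a1 and Col5a2. Over all 13 mice Col5a3 had r between 0.60 and 0.77 with those 5 genes, Col11a1 between 0.37 and 0.65, and Col27a1 between 0.36 and 0.47. With the group means taken out these ranges fell to 0.41 to 0.53, -0.03 to 0.35 and 0.08 to 0.27. These values describe libraries that share a tissue and a normalization, and are given without a test.

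**Figure D3:**
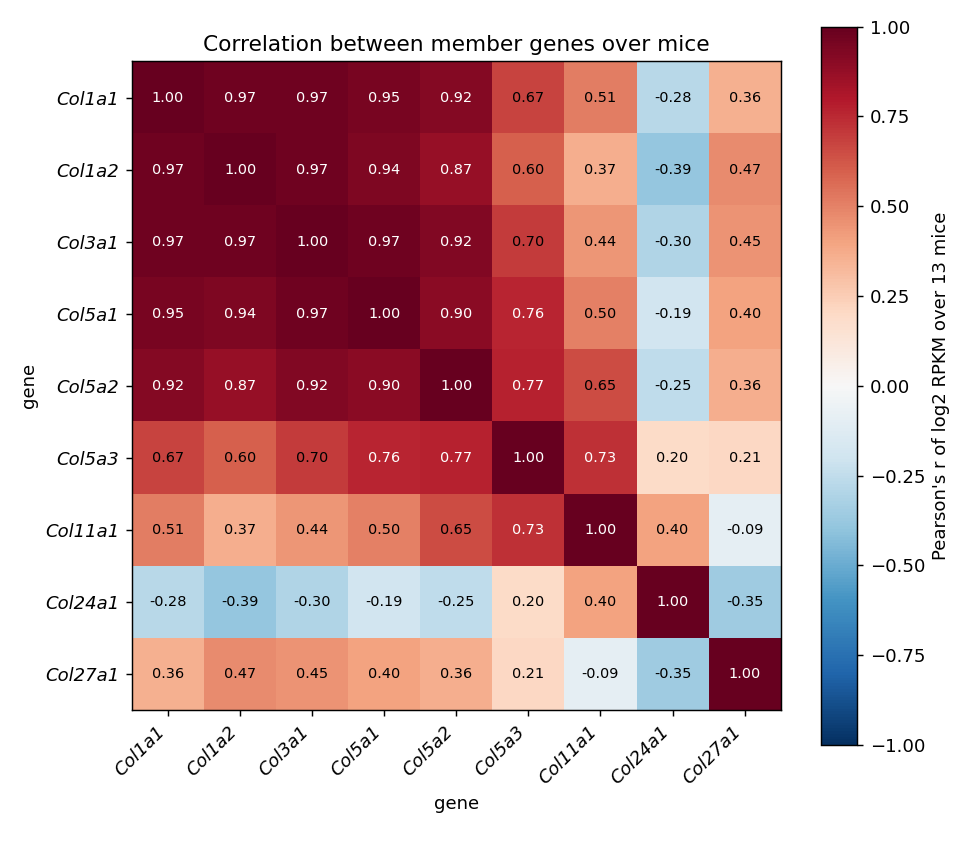
Pearson's r of the log2 RPKM over 13 mice for each pair of the 9 genes, with the genes on both axes and r as color and number. Col1a1, Col1a2, Col3a1, Col5a1 and Col5a2 form a block with r of 0.87 or more, and Col24a1 and Col27a1 stand outside it.

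Among the 8393 other genes with a mean log2 RPKM over 0, those most like the mean of Col1a1, Col1a2 and Col3a1 over the 13 mice were Col6a1 (r 0.97), Col6a3 and Sparc (0.96 each), Col6a2 and Col15a1 (0.96 each), Mmp2 (0.96), Fstl1 and Igfbp6 (0.95 each), Pmp22 (0.94) and Ehd2 (0.94). Col6a1, Col6a2 and Col6a3 encode the beaded-filament collagen VI, Col15a1 a collagen of the basement membrane zone and Sparc a collagen-binding matrix protein. Col27a1 was like other genes, with Pex11g (r 0.89), Spop (0.87), Tomm34 (0.87), 2610008E11Rik (0.85) and Mphosph8 (0.85) at the top.

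The stromal markers moved with the collagens. Of the 15 fibroblast and stellate cell markers, 15 had a lower mean in old than in young mice, of which 0 were called by limma and 4 had a raw p under 0.05, as 2.52% of all genes did in that direction. In old-OSKM mice 14 of 15 had a higher mean than in old mice and 1 was called, Thy1, by 0.85 ± 0.25. Their summed level on the log2 scale was between 5.33 and 6.14 in young, 5.005 and 5.34 in old, and 5.26 and 6.75 in old-OSKM mice. The mean of these markers had r of 0.93 with Col1a2, 0.86 with Col3a1, 0.84 with Col1a1, 0.82 with Col5a1 and 0.74 with Col5a2 over the 13 mice, and 0.37 with Col5a3. With that mean as a covariate, an alternative chosen after seeing the data, 3 of 9 members were called lower in old mice and Col1a1 differed by -0.59 ± 0.18 (raw p 0.00711), Col1a2 by -0.41 ± 0.12 (raw p 0.00537) and Col3a1 by -0.63 ± 0.18 (raw p 0.00585). In the comparison of old-OSKM with old mice 0 members were called with the covariate, and the differences were 0.39 ± 0.19 for Col1a1, 0.27 ± 0.13 for Col1a2 and 0.31 ± 0.20 for Col3a1. Col5a3 differed by -0.58 ± 0.13 between old and young mice with the covariate.

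**Figure D4:**
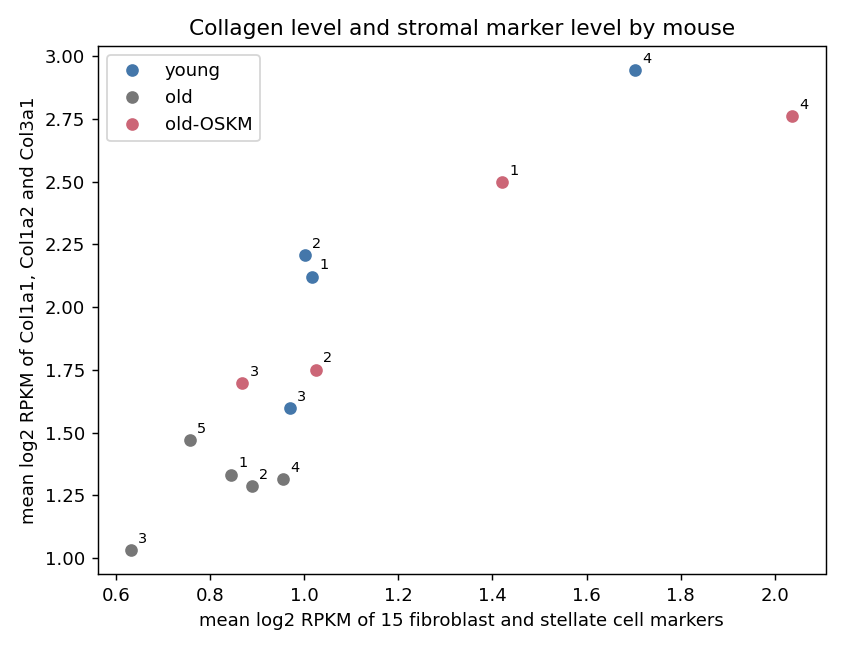
Mean log2 RPKM of Col1a1, Col1a2 and Col3a1 (y axis) against the mean log2 RPKM of 15 fibroblast and stellate cell markers (x axis), with 1 point per mouse, colored by group and numbered by replicate. Young mouse 4 and old-OSKM mice 1 and 4 are highest on both axes, and the 5 old mice lie between 1.03 and 1.47 on the y axis, below all other mice.

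Markers of other cells of the tissue moved as well. Of 8 endothelial markers, 8 had a lower mean in old than in young mice and 8 a higher mean in old-OSKM than in old mice. Of 9 macrophage markers, 9 had a higher mean in old-OSKM than in old mice, with C1qc called, and of 8 adipocyte markers, 8 did, with Plin1 called. The adipocyte gene Adipoq was at 1.12 and -0.49 log2 RPKM in old-OSKM mice 1 and 4 and at -3.29 and -2.50 in old-OSKM mice 2 and 3. The marker genes named here were picked after their values were seen. Of 6 mesothelial markers, 5 had a lower mean in old than in young mice and 5 a higher mean in old-OSKM than in old mice, with median differences of -0.54 and 0.81 and 0 called. Of 11 islet markers, 10 had a lower mean in old-OSKM than in old mice, with a median of -0.53. All 7 B and plasma cell markers and all 6 T cell markers measured had a higher mean in old than in young and in old-OSKM than in old mice, with 1 B and plasma cell marker called in the former. Without old-OSKM mice 1 and 4, 0 markers of any of these cells were called between old-OSKM and old mice, the fibroblast and stellate markers were higher in 12 of 15 with a median of 0.13, and the macrophage markers in 9 of 9 with a median of 0.26. Of all 23366 genes, 13840 were higher in that fit, with a median of 0.013. The adipocyte markers were then higher in 4 of 8, the T cell markers in 2 of 6 and the B and plasma cell markers in 4 of 7. The endothelial markers were higher in 6 of 8 with a median of 0.055, and the mesothelial markers in 5 of 6 with a median of 0.48. The islet markers were lower in 9 of 11 with a median of -0.81, farther from 0 than with all mice. The part of these cells in the collagen values was not tested.

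The genes that modify, cut, crosslink and coat fibrillar collagens were described as lists beside the members. Counts are of genes called in the old against young comparison and then in the old-OSKM against old comparison. Proteins on the fibril surface and regulators of fibril assembly were closest to the collagens: 17 of 18 had a lower mean in old mice with 2 called, and 17 of 18 had a higher mean in old-OSKM mice with 4 called. The median difference of the list was -0.40 and 0.63 in these comparisons. Of 6 crosslinking genes 1 was called lower and 1 higher, and of 11 genes of collagen degradation 1 was called lower and 0 higher. None of the 20 genes of chain modification and folding, 16 of export and propeptide removal, 10 receptors or 21 regulators of collagen transcription was called in either comparison. At a raw p under 0.05, which 3.98% of all genes passed as higher in old-OSKM mice and the share given above as lower in old mice, there were 3 and 1 folding genes, 2 and 1 export genes, 2 and 2 receptors and 1 and 2 regulators. No gene of these lists had an adjusted p under 0.05, and the smallest in the 2 comparisons were 0.124 and 0.536, both for Col12a1. Without old-OSKM mice 1 and 4, 17 of 18 genes of the fibril surface list were still higher in old-OSKM than in old mice, with a median of 0.20. Of all 23366 genes, 13840 were higher in that fit, with a median of 0.013. Col12a1 was the 1 gene of all these lists that was called, where 0.133% of all genes were called higher.

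Col12a1 encodes a collagen that sits on the surface of type I fibrils. It was between -3.19 and -2.59 log2 RPKM in young, between -4.15 and -3.59 in old and between -3.05 and -2.36 in old-OSKM mice. The old mice were below all others. These levels were low, at 0.067 RPKM for the mean of the old mice, and the number of reads behind them is unknown. The values of the old mice overlapped those of near-constant genes such as Mmp1a (-3.94 to -3.75). The pseudocount and filter alternatives were not run for Col12a1. Col12a1 fell by 1.00 ± 0.19 from young to old mice (raw p 0.000270) and was higher by 1.12 ± 0.19 in old-OSKM than in old mice (raw p 0.000104). Fn1, the fibronectin on which fibrils are laid down, fell by 0.95 ± 0.26 (raw p 0.00378) and was higher by 0.95 ± 0.26 in old-OSKM mice (raw p 0.00366). Postn, the matricellular protein periostin, was called in the second comparison, with a difference of 0.92 ± 0.26 (raw p 0.00398), and so was Col14a1, another fibril-surface collagen, with 0.72 ± 0.22 (raw p 0.00815). Without old-OSKM mice 1 and 4 the second difference was 0.89 ± 0.23 for Col12a1 (raw p 0.0034), and 0.59 ± 0.30 for Fn1, 0.58 ± 0.29 for Postn and 0.47 ± 0.28 for Col14a1, which were not called.

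Among the enzymes, Loxl1, a lysyl oxidase that crosslinks collagen and elastin, fell by 0.58 ± 0.19 from young to old mice (raw p 0.00989) and was higher by 0.62 ± 0.19 in old-OSKM than in old mice (raw p 0.00741), though by 0.42 ± 0.23 and without a call once old-OSKM mice 1 and 4 were left out. Tgm2, a transglutaminase, differed by 0.38 ± 0.12 in the second comparison (raw p 0.00884), under the fold threshold. Mmp2, a gelatinase, fell by 0.69 ± 0.19 in old mice (raw p 0.00418), so that a gene of collagen breakdown was lower together with the collagens. Its difference of 0.53 ± 0.19 in the second comparison was not called (raw p 0.0193). Serpinh1, the chaperone HSP47 that is specific to collagen, was at 2.25 ± 0.33 (SD, n = 4) log2 RPKM in young, 1.91 ± 0.19 (n = 5) in old and 2.36 ± 0.41 (n = 4) in old-OSKM mice. Pcolce, an enhancer of C-propeptide removal, differed by -0.48 ± 0.21 and 0.53 ± 0.21 (raw p 0.0427 and 0.0300). Adamts14, a protease that removes the N-propeptide, differed by -1.01 ± 0.36 between old and young mice (raw p 0.0176), and Timp2, an inhibitor of matrix metalloproteinases, by 0.81 ± 0.29 in the second comparison (raw p 0.0153). None of Serpinh1, Pcolce, Adamts14 and Timp2 was called.

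Of the collagen receptors, Itga11, an integrin subunit that binds fibrillar collagen, differed by -0.54 ± 0.13 between old and young mice (raw p 0.00134), just under the fold threshold, and its young and old mice overlapped. In the second comparison its difference was 0.15 ± 0.13 (raw p 0.279). Mrc2, an endocytic receptor that takes up collagen, differed by -0.55 ± 0.20 and 0.47 ± 0.20 in the first and second comparisons (raw p 0.0200 and 0.0403). Among the regulators, Tgfb2, a ligand of the TGF-beta pathway that raises collagen transcription, differed by -0.56 ± 0.20 between old and young mice (raw p 0.0149), and Tgfbr2, a receptor of the pathway, by 0.68 ± 0.25 between old-OSKM and old mice (raw p 0.0176). Tgfb3 differed by 0.38 ± 0.13 in the latter (raw p 0.0105).

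**Figure D5:**
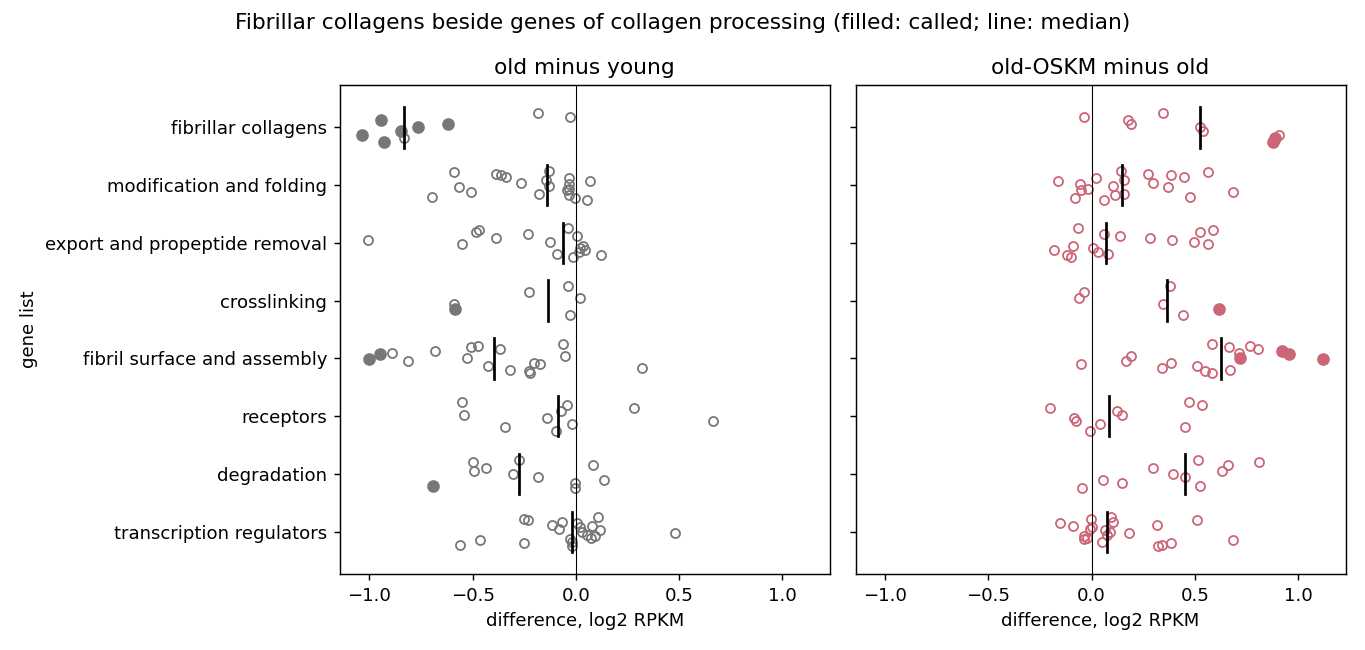
Difference in log2 RPKM (x axis) of each gene in the fibrillar collagens and in 7 lists of genes that act on collagen (y axis), for old minus young on the left and old-OSKM minus old on the right. Filled points are genes past both thresholds, and a black line marks the median of each list, which is farthest from 0 for the fibrillar collagens on the left and for the fibril surface list on the right.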

How the data were processed

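Ribosomal RNA was depleted, libraries were made with NEBNext Ultra II and sequenced in pairs. The deposited values are log2 RPKM per Entrez gene: the authors aligned reads to mm10 with STAR 2.3.0e, estimated RPKM per isoform with Casper, excluding reads with many mapping places, summed isoforms per gene, and quantile normalized the log2 values. Once sorted, the values of any 2 mice were within 0.0116 of each other at every rank. Whether the correction by total reads that the methods describe was made before that step cannot be told from the table, and no read totals were used here, so the depth per mouse and the counting error are unknown. Quantile normalization can hide a shift common to all genes.

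The values were used as deposited, without pseudocount or filter. Differences were fitted with limma 3.58.1 in R 4.3.3 (lmFit, eBayes) over all 23366 genes and 3 groups, called where the raw p was under 0.01 and the fold change over 1.5, with Benjamini-Hochberg adjusted p-values beside them. For single values, exact permutation tests (two-sided) were run. Groups came from the sample labels. The fit was tested on simulated data. Alternatives were repeated quantile normalization, median centring, pseudocounts of 1 and 0.1, a filter at a mean log2 RPKM over 0, the 2 groups alone, eBayes with trend and robust set, a covariate for the 2 blocks of sample id numbers, the permutation test, and leaving out each mouse. The second block of id numbers held young mice 3 and 4 and old mouse 5, and no old-OSKM mouse. The members and lists were chosen with earlier results of these data known. Genes were named from the members, the called genes and the 2 of smallest raw p of each pathway list in each of the first 2 comparisons, and the genes most correlated with members, and not all of these are discussed.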

Additional observations from a re-analysis of the deposited data

Results flagged for a closer look

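The range of 1 gene in 1 group was marked by a single mouse. Col11a1 was at -4.37 log2 RPKM in old mouse 3 and between -5.15 and -5.02 in the other 4 old mice, and the gap to the nearest of them was 0.830 of the range of the group, above the critical value of 0.71 of Dixon's test. Those 4 values were within the range of Col24a1, -5.20 to -4.99, near the bottom of the table. Their narrow spread cannot be told from that of a near-constant gene, so the mark is not read as an outlying mouse. Of 39 groups of values looked at, chance marks about 1 in 20. Without old mouse 3 the difference of Col11a1 between old and young mice was -1.08 on the log2 scale, with a raw limma p of 0.000240 and an adjusted p of 0.149.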

How the results depend on the processing

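Of 624 member differences recomputed, 536 kept their direction and their side of the threshold, 58 lost the call, 14 gained it and 16 changed sign. The 6 members called between old and young mice became 2 with a pseudocount of 1 and 3 with the fibroblast marker mean as a covariate, and 1 to 7 without 1 mouse. The 2 called between old-OSKM and old mice became 1 with a pseudocount of 1 and with the block of sample id numbers as a covariate, 0 without old-OSKM mice 1 and 4 and with the marker covariate, and 0 to 4 without 1 mouse. The 1 called between old-OSKM and young mice became 0 with a pseudocount of 1 or 0.1, the filter, the 2 groups alone, the id block, without old-OSKM mice 1 and 4 and with the marker covariate, and 0 to 1 without 1 mouse. A pseudocount shrinks low genes by construction, the filter leaves out those below it, and the cause of the other changes was not tested. Without old-OSKM mice 1 and 4, Col24a1 went to 0.040 against old and 0.012 against young mice, and to 0.022 in the former with the marker covariate, Col1a1 (old-OSKM minus young) to 0.012 with the id block, and Col1a2 (old-OSKM minus young) to -0.43 without old-OSKM mice 1 and 4 and -0.14 with the marker covariate. Without 1 mouse, old-OSKM minus young ranged from -0.26 to 0.16 for Col1a1, -0.19 to 0.30 for Col1a2 and -0.36 to 0.14 for Col3a1, and old-OSKM minus old from -0.061 to 0.0025 for Col24a1. The within-mouse values ranged from -0.082 to 0.094 for Col1a1 minus Col1a2 and -0.038 to 0.092 for Col3a1 minus Col1a1 (old-OSKM minus old), and for Col5a1 minus Col5a2 from -0.159 to 0.011 (old minus young), -0.155 to 0.016 (old-OSKM minus young) and -0.074 to 0.097 (old-OSKM minus old). The permutation test of 4 mice against 4 cannot pass 0.01 and was not used to call genes there.
No paired analysis was possible because the labels give the mice no shared replicate numbers. The depth of each mouse is unknown, so the Col24a1 values and the lower Col11a1 values cannot be told from the lowest that the method reports.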
